A study of Mus musculus with 13 samples.

Results

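The genes described here encode the proteins of the cytosolic ribosome. They were taken by name from the 24328 genes of the deposited tables: symbols beginning Rps or Rpl with a number, and Rpsa, Rplp0, Rplp1 and Rplp2, without pseudogene names and without the Rps6k kinases. Of 84 such genes, 82 had at least 10 reads over all libraries, 33 of the small and 49 of the large subunit, and these are called members below. Rpl10l and Rpl39l fell under that limit. Of the 82, 80 passed the filter on low counts in the time course and were tested. Rpl3l and Rps4l did not pass.

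The series holds 13 RNA libraries of mouse bone marrow cells. In the time course, leukemia stem cells (LSC) from mouse leukemia with the MLL-AF10 fusion gene were untreated (0 h) or kept in A-485 for 8, 24, 48 or 72 h, with 2 libraries at each time. A-485 inhibits the acetyltransferase activity of the coactivators p300 and CBP. Mature leukemia cells (mAML), LSC and wild-type granulocyte-monocyte progenitors (GMP) had 1 library each. Per the labels' protocols the MLL-AF10 leukemia cells were grown in culture with serum and WEHI-conditioned medium. The fusion is carried by treated and untreated LSC alike. The labels do not say that the 2 libraries of a time came from separate cultures. The p-values therefore measure the spread between these libraries, which may in part be technical. No vehicle control for the later times is among the samples, and the dose was not given.

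A ribosome holds 1 copy of nearly every ribosomal protein, so cells make these proteins in matched amounts. Their mRNAs are short and very abundant, and many start with a C followed by a run of pyrimidines, the TOP motif, through which mTOR signalling and LARP1 control their translation. MYC drives their transcription in many blood cancers, and loss of a single gene, such as human RPS19 or RPL5, causes the bone marrow failure of Diamond-Blackfan anemia.

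The annotated starts of 8 members are printed here so that the changes of these genes can be set beside the letters at the start. Rpl12, Rpsa, Rps2 and Rpl10a had the largest falls at 72 h, Rps10 and Rpl28 have a long pyrimidine run, and Rpl7l1 and Rps28 were not called at 72 h. Each sequence is RefSeq's for build GRCm38.p6, read 5′ to 3′ on the gene's strand, with 40 bases before the annotated start and 25 from it. Capitals mark the start base and any unbroken run of C and T that begins there. For Rpl10a, which has 2 annotated starts, 1 is shown.
Rpl12 (chr2:32961672-32961736, plus strand): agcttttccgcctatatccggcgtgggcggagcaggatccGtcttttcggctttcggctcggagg
Rpsa (chr9:120127726-120127790, plus strand): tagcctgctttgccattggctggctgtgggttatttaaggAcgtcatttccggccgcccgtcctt
Rps2 (chr17:24720023-24720087, plus strand): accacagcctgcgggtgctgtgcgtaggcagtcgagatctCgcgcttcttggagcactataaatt
Rpl10a (chr17:28328431-28328495, plus strand): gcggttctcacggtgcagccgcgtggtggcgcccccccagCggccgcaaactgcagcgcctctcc
Rps10 (chr17:27635220-27635284, minus strand): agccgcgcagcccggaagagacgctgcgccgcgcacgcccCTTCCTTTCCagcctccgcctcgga
Rpl28 (chr7:4792925-4792989, plus strand): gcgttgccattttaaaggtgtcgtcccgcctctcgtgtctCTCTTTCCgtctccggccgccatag
Rpl7l1 (chr17:46782632-46782696, minus strand): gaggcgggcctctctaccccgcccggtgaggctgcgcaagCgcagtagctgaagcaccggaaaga
Rps28 (chr17:33824538-33824602, minus strand): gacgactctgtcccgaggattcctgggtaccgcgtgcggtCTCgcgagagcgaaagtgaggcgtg

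RefSeq promoters were matched by symbol for 61 of the 82 members. A start of C followed directly by at least 4 more letters that are C or T was found in 13 of them, or 21.3%, against 3.01% of 27025 genes. The letters CCGGAAG, a site that ETS-family factors bind, were searched on either strand within the 300 bases around the start. They were found in 25 members, or 41.0%, against 9.93% of the 27025 genes. These 27025 are all genes with a promoter sequence, whether or not they were expressed in these cells, while members are very abundant. The reverse of that site begins with pyrimidines and can overlap a start run. At 72 h the 13 members with the start motif had a median log2 change of -1.23 and the other 47 matched members tested -1.22. The 25 with CCGGAAG had -1.22 and the 35 without it -1.23. A gene's annotated start need not be the start used in these cells, and a match is a description of letters only.

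Members made up less of each library as time in A-485 went on. They held 9.51 and 9.92% of all reads in the 2 libraries at 0 h, 8.74 and 7.65% at 8 h, 7.46 and 7.38% at 24 h, 5.02 and 5.68% at 48 h, and 4.92 and 5.41% at 72 h. Each treated library was below both libraries at 0 h. The members' share of TPM, the authors' abundance per length and depth, was 28.7 and 29.9% at 0 h, 28.0 and 26.2% at 8 h, 26.3 and 26.2% at 24 h, 20.8 and 22.0% at 48 h, and 19.6 and 20.8% at 72 h. By reads the share at 72 h averaged 5.17% ± 0.346, against 9.72% ± 0.29 at 0 h, and by TPM 20.2% ± 0.849 against 29.3% ± 0.849 (SD, n = 2 each). Large-subunit members summed to between 1.18 and 1.25 times the TPM of small-subunit members in all 10 libraries. That ratio was 1.25 and 1.24 at 0 h, 1.22 and 1.24 at 8 h and 1.20 in both libraries at 24 h. It was 1.19 and 1.18 at 48 h and 1.21 and 1.20 at 72 h. The small-subunit sum leaves out Rps27rt, a retrocopy of Rps27 described below. Rps27rt had 8558 and 7548 TPM at 0 h and 16900 and 15870 TPM at 48 h, so the ratio depends on leaving it out. In the single libraries members held 7.08% of reads in mAML, 10.5% in LSC and 9.94% in GMP, and 17.9, 27.0 and 26.5% of TPM in the same order. In bulk RNA, fewer cells of a type and less RNA per cell cannot be told apart, and no share shows the amount of ribosomal RNA or protein.

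**Figure D1:**
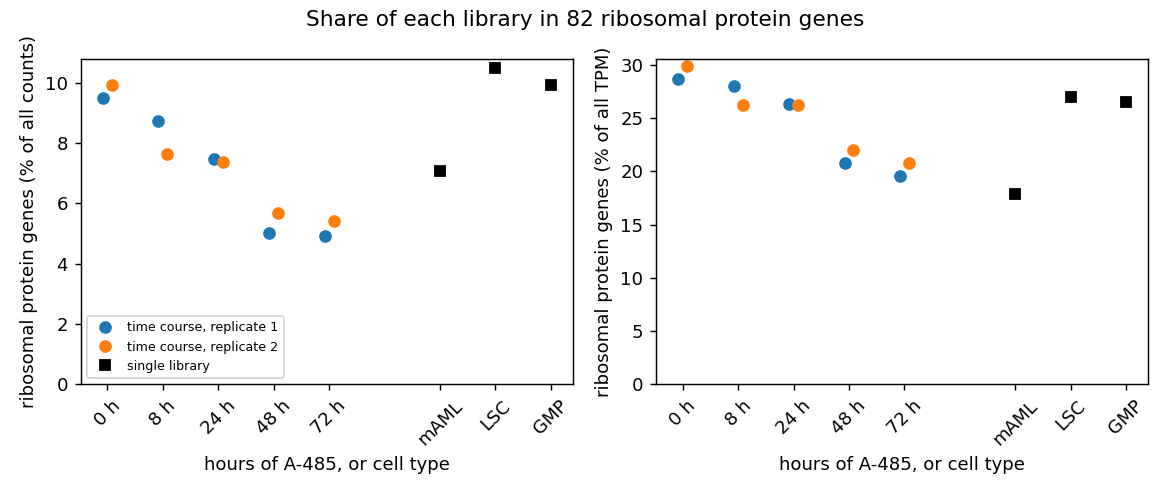
Share of all reads (left, %) and of all TPM (right, %) in the 82 members, per library, by hours of A-485 or by cell type, with circles for the 2 replicates of a time and squares for single libraries. By reads every treated library is below both 0 h libraries, and 72 h lies at 4.92 and 5.41% against 9.51 and 9.92% at 0 h.

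Several facts of the libraries stand beside these shares. The time course libraries had between 6467764 and 9763276 reads, and mAML, LSC and GMP had 47257642, 40468515 and 24532508. The TMM factors, which scale libraries by the bulk of genes, were 1.03 to 1.07 in all treated libraries, against 0.83 and 0.832 at 0 h. Averaged over reads, transcripts were 3786 and 3670 nt long in the 72 h libraries, against 3128 and 3115 nt in those at 0 h. Members are short, with a median length of 694 nt against 2764 nt for the 11119 genes tested. One library each at 8, 24 and 72 h had much more Wnt2 than the others (67.1, 69.2 and 20.9 CPM against at most 3.58 CPM), and counts are also given without these 3. The 6 markers of the labelled cells summed to 335 and 303 TPM at 72 h, against 3260 and 2590 TPM at 0 h, but did not move together. Kit had 0.14 and 0 TPM at 72 h, against 46.0 and 45.2 TPM at 0 h, and Mpo was at 0 in both libraries at 72 h, against 1530 and 1130 TPM at 0 h. Hoxa9 had 145 and 146 TPM at 72 h, against 48.5 and 59.9 TPM at 0 h, and Meis1 68.5 and 46.6 TPM, against 12.5 and 19.7 TPM at 0 h. The 7 monocyte and macrophage markers with a row summed to 353 and 315 TPM at 72 h, against 7590 and 5430 TPM at 0 h, none of them at 0 in these 4 libraries. Ly6c2 carried that difference, with 51.0 and 56.8 TPM at 72 h against 7400 and 5220 TPM at 0 h. Adgre1 had 205 and 162 TPM at 72 h, against 123 and 125 TPM at 0 h, and Cd68 74.8 and 72.8 TPM, against 36.4 and 37.4 TPM at 0 h. The 7 neutrophil markers summed to 11.4 and 1.49 TPM at 72 h, where 3 and 6 of them were at 0, against 6360 and 1340 TPM at 0 h. The 8 B-cell markers summed to at most 3.81 TPM in every time course library. The 10 T- and NK-cell markers summed to 3.14 and 4.29 TPM at 72 h, against 188 and 97.4 TPM at 0 h, with most of the sum at 0 h from Nkg7, and with Cd2 and Ncr1 at 0 in all 10 libraries. The 9 erythroid markers with a row summed to 6.22 and 3.98 TPM at 72 h, against 292 and 301 TPM at 0 h, with Hba-a2 and Slc4a1 among those at 0 throughout and most of the sum at 0 h from Hbb-b2. The part of these cell types in the members' changes was not tested.

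After 8 h in A-485, 65 of the 80 members tested were lower than at 0 h and none was higher (edgeR quasi-likelihood test, Benjamini-Hochberg adjusted p under 0.05). Over all genes 21% were called lower and 17.9% higher at that time. At 24 h 70 members were lower (27.1% of all genes), at 48 h 76 (30.5%) and at 72 h 76 (29.4%), again with no member called higher, against 23.2, 25.2 and 25.9% of all genes. The members' median log2 change was -0.56 at 8 h, -0.67 at 24 h, -1.19 at 48 h and -1.21 at 72 h, while the median over all genes tested lay between -0.04 and 0.01. Both libraries lay below both 0 h libraries for 77 members at 8 h, 77 at 24 h, 78 at 48 h and 78 at 72 h, against 36.4, 40.2, 43.5 and 41.8% of all genes. Tested over all 4 treated times together, 75 members changed, against 59.8% of all genes, and the 5 not called were Rpl7l1, Rps16, Rps27, Rps28 and Rps29. The 32 small-subunit members tested had a median of -1.20 at 72 h and the 48 large-subunit members -1.21.

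**Figure D2:**
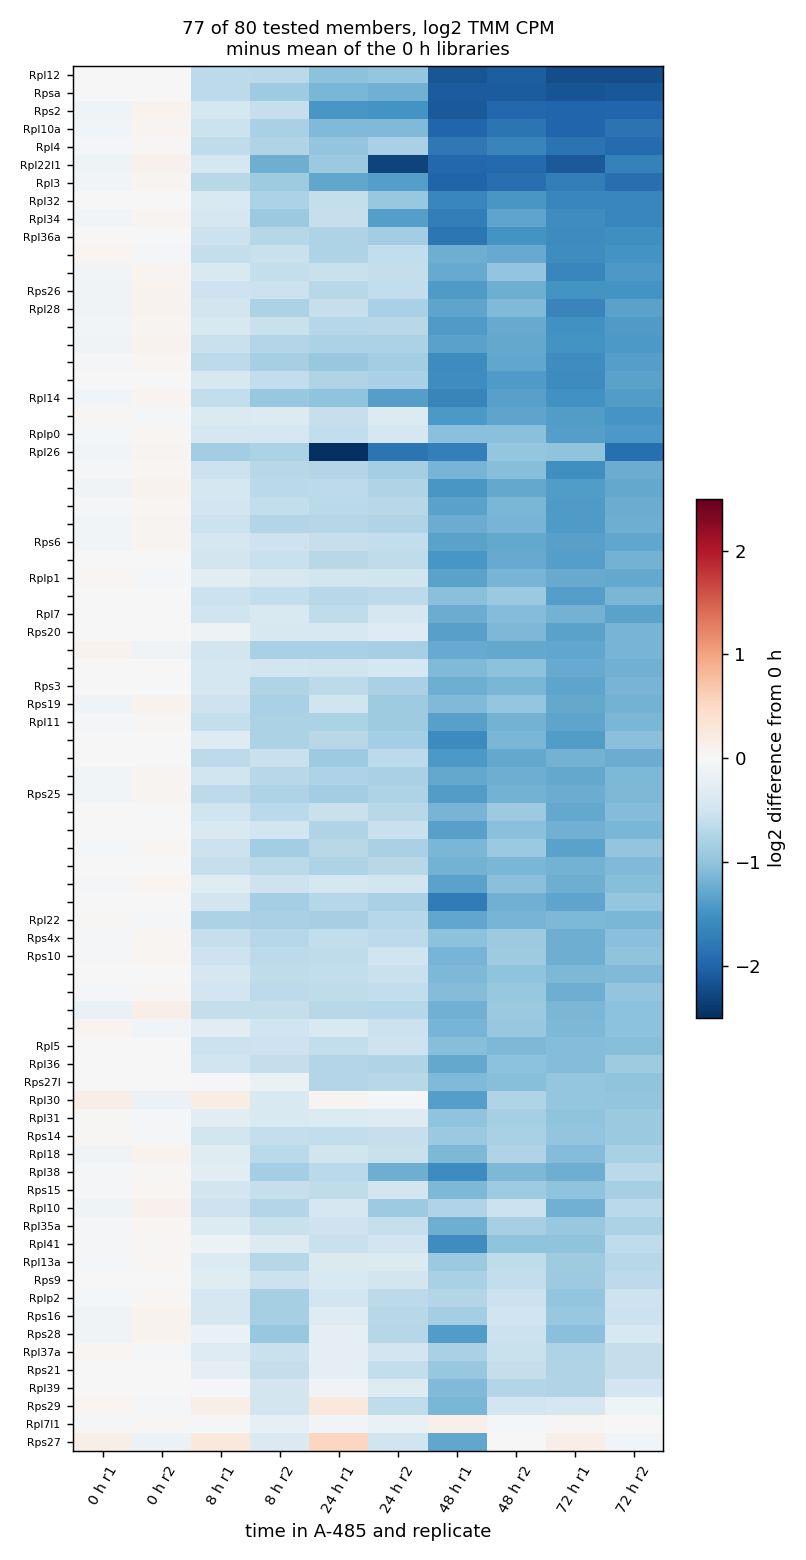
Log2 difference of 77 of the 80 tested members (rows, with names for the members given in the text) from the mean of the 0 h libraries, in TMM-scaled CPM, for the 10 time course libraries in order of time (columns). Rpl12, Rpsa, Rps2 and Rpl10a at the top fell most at 72 h, with changes of -2.22, -2.14, -1.99 and -1.92, and Rps27, Rpl7l1 and Rps29 stand at the other end.

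How many members were lower at the early times depended on the scaling. Scaled by library size alone, which put the median of all genes between 0.28 and 0.35 above 0 h, 16, 44, 69 and 67 members were lower at 8, 24, 48 and 72 h (13.7, 18.1, 21 and 20% of all genes). Rpl7l1 was higher at 48 and 72 h and no member at 8 or 24 h, against 36.7, 37.5, 39.7 and 41.5% of all genes. The members' medians were then -0.25, -0.37, -0.84 and -0.84. With DESeq2 66, 74, 78 and 76 members were lower, against 21, 26.4, 28.9 and 28.6% of all genes. On the log2(TPM + 1) scale, tested with limma, 9, 23, 63 and 62 were lower and 2, 3, 1 and 1 higher, against 12.2, 14.4, 15.7 and 14.7% lower and 43.7, 45.9, 52.2 and 54.9% higher of all genes. There the members' medians were -0.15, -0.17, -0.50 and -0.52, and the medians of all genes 0.41, 0.43, 0.56 and 0.62. With a trend on transcript length, fitted on the other genes, taken out of the counts, 28, 19, 38 and 47 were lower and 0, 7, 4 and 4 higher, with medians of -0.28, -0.08, -0.29 and -0.43 (16.8, 20, 21.3 and 20.8% of all genes lower and 26, 30.6, 34.9 and 37.4% higher). Each member median lay below 0 and below the median of all genes under these 4 scalings. The count at 8 h also rested on single libraries: it was 32 without replicate 2 at 0 h and 43 without replicate 2 at 8 h, in place of 65. Without the 3 libraries with high Wnt2, 53, 70, 78 and 76 members were lower (21.4, 27.7, 34.9 and 30.3% of all genes).

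**Figure D3:**
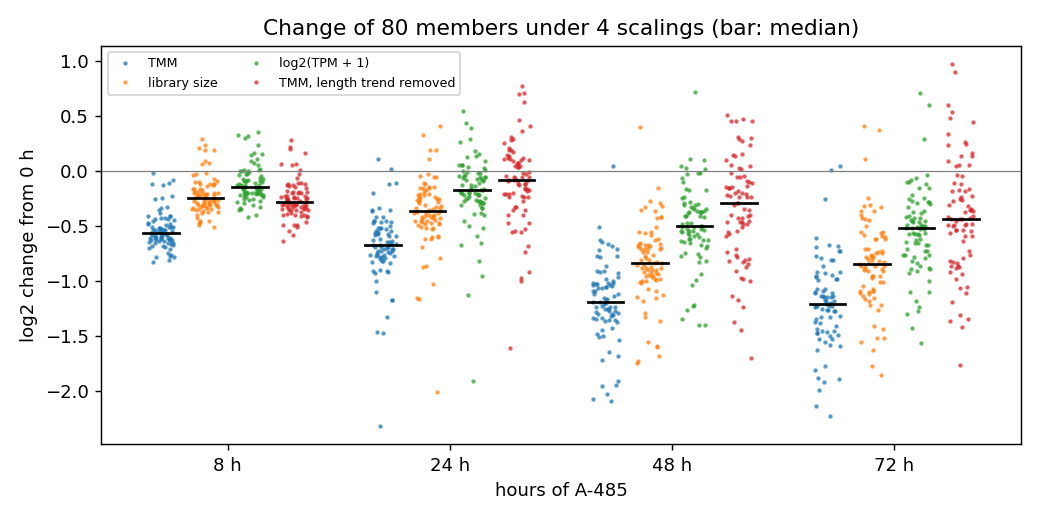
Log2 change from 0 h of the 80 tested members at 8, 24, 48 and 72 h under 4 scalings, with 1 point for each member and a bar at the median. The TMM medians run from -0.56 at 8 h to -1.21 at 72 h, the log2(TPM + 1) medians from -0.15 to -0.52, and every bar lies below 0.

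Among small-subunit genes, Rpsa and Rps2 fell most. Rpsa, which encodes a protein of the small subunit also known as the laminin receptor, had 3102 and 3120 TPM at 0 h, 2625 and 2351 TPM at 8 h, 2027 and 1925 TPM at 24 h, 1197 and 1166 TPM at 48 h, and 1169 and 1141 TPM at 72 h. Every treated library was below both at 0 h. In TMM-scaled counts the log2 change of Rpsa was -0.77 ± 0.0988 (SE; edgeR adjusted p = 0.000662) at 8 h and -2.14 ± 0.103 (adjusted p = 4.57e-06) at 72 h, and on the log2(TPM + 1) scale -1.43 at 72 h (limma adjusted p = 1.05e-05). Rps2, whose protein lies near the channel where mRNA enters, had 4012 and 4560 TPM at 0 h, 4144 and 3999 TPM at 8 h, 2243 and 2174 TPM at 24 h, 1646 and 1725 TPM at 48 h, and 1786 and 1693 TPM at 72 h. In TPM the 8 h and 0 h libraries of Rps2 overlapped, and the drop came between 8 and 24 h. In TMM-scaled counts Rps2 changed by -0.51 (edgeR adjusted p = 0.00521) at 8 h, -1.47 (adjusted p = 3.33e-05) at 24 h and -1.99 ± 0.107 (adjusted p = 7.14e-06) at 72 h. Without replicate 2 at 0 h the 8 h change of Rps2 was -0.38 and no longer called (adjusted p = 0.0542). It was not called by library size (-0.20, adjusted p = 0.146) or by TPM (-0.0714, limma adjusted p = 0.523).

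Other small-subunit genes fell less. Rps6, whose protein is phosphorylated by S6 kinases downstream of mTOR, had 1859 and 1836 TPM at 72 h, against 2702 and 2975 TPM at 0 h, a log2 change of TMM-scaled counts of -1.32 ± 0.0934 (adjusted p = 1.67e-05). Rps19, the gene most often mutated in Diamond-Blackfan anemia in humans, had 1702 and 1711 TPM at 72 h, against 2378 and 2671 TPM at 0 h, and changed by -1.23 (adjusted p = 0.00027). Rps14, whose human counterpart is deleted in a subtype of myelodysplastic syndrome, had 5374 and 5267 TPM at 72 h, against 6653 and 6433 TPM at 0 h, and changed by -0.95 (adjusted p = 6.93e-05). With the length trend removed Rps14 changed by -0.0428 at 72 h and was not called (adjusted p = 0.69). Neither gene's libraries overlapped between the times. Rps26 changed by -1.498, Rps3 by -1.23, Rps25 by -1.19 and Rps4x by -1.13 in TMM-scaled counts at 72 h, each called (largest adjusted p = 8.71e-05). On the log2(TPM + 1) scale the same 4 genes changed by -0.89, -0.52, -0.52 and -0.45.

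Among large-subunit genes, Rpl12 and Rpl10a fell most at 72 h. Rpl12, whose protein forms the base of the stalk where translation factors bind, had 5336 and 5450 TPM at 0 h, 4468 and 4756 TPM at 8 h, 3712 and 3941 TPM at 24 h, 2075 and 2021 TPM at 48 h, and 1889 and 1769 TPM at 72 h. Every treated library was below both at 0 h. In TMM-scaled counts Rpl12 changed by -0.66 ± 0.0826 (edgeR adjusted p = 0.000595) at 8 h and -2.22 ± 0.0861 (adjusted p = 2.16e-06) at 72 h, and on the log2(TPM + 1) scale by -1.56 at 72 h (limma adjusted p = 9.83e-06). Rpl10a, a protein of the large subunit's L1 stalk, had 3011 and 3268 TPM at 0 h, 2820 and 2503 TPM at 8 h, 2084 and 2090 TPM at 24 h, 1313 and 1383 TPM at 48 h, and 1306 and 1356 TPM at 72 h. In TMM-scaled counts it changed by -1.92 ± 0.12 at 72 h (adjusted p = 1.1e-05).

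The largest falls at 8 h among called members were those of Rpl22, Rpl3, Rpl14 and Rpsa. Rpl22, which is dispensable for translation and known in mice for its part in T-cell development, had 258 and 266 TPM at 8 h, against 342 and 329 TPM at 0 h. Its log2 change in TMM-scaled counts was -0.80 ± 0.0917 (edgeR adjusted p = 0.000363) at 8 h and -1.13 at 72 h. Rpl3, which lines the peptidyl transferase centre, had 2557 and 2341 TPM at 8 h, against 2961 and 3248 TPM at 0 h, and changed by -0.78 ± 0.11 (adjusted p = 0.000999) at 8 h and by -1.81 at 72 h. Rpl14 changed by -0.77 (adjusted p = 0.00731) at 8 h. It was no longer called without replicate 2 at 0 h (-0.66, adjusted p = 0.0573), by library size (-0.45, adjusted p = 0.0506) or by TPM (-0.34, limma adjusted p = 0.0785), and had 1788 and 1510 TPM at 8 h, against 1979 and 2178 TPM at 0 h. Rpl5 and Rpl11, which bind MDM2 when ribosome assembly fails, changed by -0.52 and -0.68 at 8 h and by -1.07 and -1.22 at 72 h, each called (largest adjusted p = 0.00202). The 8 h call of Rpl5 was lost by library size (-0.21, adjusted p = 0.0684) and by TPM (-0.0775, limma adjusted p = 0.42). Rpl7 changed by -0.43 (adjusted p = 0.0182; by library size -0.12, adjusted p = 0.428) at 8 h and -1.26 (adjusted p = 5.54e-05) at 72 h. Its 8 h TPM of 3498 and 4023 overlapped the 3744 and 3720 TPM at 0 h, and its 8 h call was lost without either 0 h library (adjusted p = 0.0964 and 0.0942) and without replicate 1 at 8 h (0.0769).

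The acidic stalk genes did not all behave alike. Rplp0, the stalk's anchor, had 3044 and 2797 TPM at 72 h, against 4697 and 4830 TPM at 0 h, a log2 change of TMM-scaled counts of -1.41 ± 0.0992 (adjusted p = 1.67e-05). Rplp1 had 4535 and 4098 TPM at 72 h, against 6953 and 6633 TPM at 0 h, and changed by -1.27 (adjusted p = 2.47e-05), or by -0.23 with the length trend removed, which was not called (adjusted p = 0.0527). Rplp2, the partner of Rplp1, had 5861 and 7478 TPM at 72 h, against 7192 and 7514 TPM at 0 h. In TMM-scaled counts Rplp2 changed by -0.73 (adjusted p = 0.00906), but it was not called by TPM (-0.15, limma adjusted p = 0.331) or by library size (-0.36, adjusted p = 0.116), and its sign turned with the length trend removed (0.33, adjusted p = 0.0817). Without replicate 1 at 72 h its adjusted p was 0.0617, and without replicate 2 at 0 h 0.0553.

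**Figure D4:**
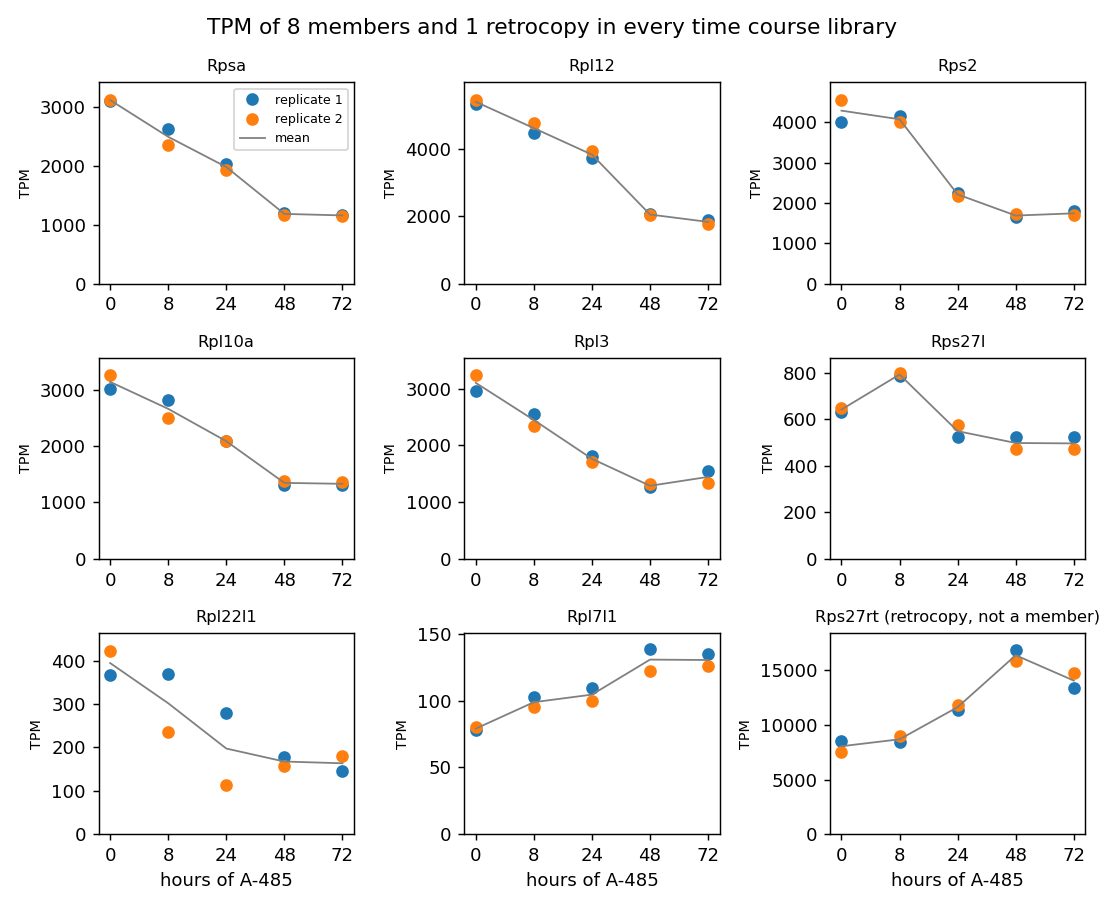
TPM of 8 members and of the retrocopy Rps27rt (not a member) in each of the 10 time course libraries, by hours of A-485 (equally spaced), with circles for the 2 replicates and a line through the means. Rpsa had 1169 and 1141 TPM at 72 h against 3102 and 3120 TPM at 0 h, while Rpl7l1 and Rps27rt were higher in TPM at 72 h than at 0 h, which by TMM was not called for either gene.

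Members that fell less were also found in the large subunit. Rpl39, a very short protein at the exit of the peptide tunnel, had 3659 and 4008 TPM at 72 h, against 4007 and 3979 TPM at 0 h, so the groups overlapped in TPM. Its log2 change in TMM-scaled counts was -0.61 (adjusted p = 0.0174) at 72 h and -0.23 (adjusted p = 0.331) at 8 h. With the length trend removed Rpl39 was higher at 72 h (0.53, adjusted p = 0.00835), and on TMM its call was lost without either 0 h library or without replicate 1 at 72 h (adjusted p = 0.0756 to 0.111). Rpl38, which in mice affects translation of Hox mRNAs, had 4752 and 5810 TPM at 72 h, against 7401 and 7663 TPM at 0 h, and changed by -0.93 in TMM-scaled counts (adjusted p = 0.0168), or by 0.45 with the length trend removed (adjusted p = 0.099) and -0.56 by library size (adjusted p = 0.0964). Its call at 72 h was lost without either 0 h library or without replicate 1 at 72 h (adjusted p = 0.0645 to 0.109). Rpl10, whose protein is placed last as the subunit matures, had 3363 and 4529 TPM at 72 h, against 4352 and 4993 TPM at 0 h, and changed by -0.92 in TMM-scaled counts (adjusted p = 0.00579), but was not called by TPM (-0.26, limma adjusted p = 0.246) or with the length trend removed (-0.17, adjusted p = 0.441).

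The paralogs, genes related in sequence to that of a core protein, differed from one another. Rps27l, a p53 target in human cells, had 634 and 651 TPM at 0 h, 786 and 800 TPM at 8 h, 523 and 576 TPM at 24 h, 526 and 471 TPM at 48 h, and 523 and 471 TPM at 72 h. In TPM both 8 h libraries were above both 0 h libraries and all later ones below. Rps27l was called higher at 8 h on the log2(TPM + 1) scale (0.30, limma adjusted p = 0.0223) and not by TMM (-0.10, edgeR adjusted p = 0.432). On the log2(TPM + 1) scale the median of all genes at 8 h was 0.41, above the change of Rps27l, and 43.7% of all genes were called higher. At 72 h it was lower by TMM (-0.99, edgeR adjusted p = 9.48e-05) and by TPM (-0.37, limma adjusted p = 0.00649), but not with the length trend removed (0.06, adjusted p = 0.702).

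Rpl7l1, a paralog of Rpl7, had 78.0 and 80.1 TPM at 0 h, 103 and 94.96 TPM at 8 h, 109 and 99.5 TPM at 24 h, 139 and 122 TPM at 48 h, and 135 and 126 TPM at 72 h. Every treated library was above both 0 h libraries in TPM. By TMM it changed by 0.01 ± 0.101 at 72 h (edgeR adjusted p = 0.948), while it was higher by library size (0.37, adjusted p = 0.0111) and by TPM (0.71, limma adjusted p = 0.000325). These rises lay near the 72 h medians of all genes, 0.35 by library size and 0.62 by TPM. Rpl22l1, the paralog that takes the place of Rpl22 in mouse cells without it, had 367 and 422 TPM at 0 h, 368 and 236 TPM at 8 h, 281 and 115 TPM at 24 h, 178 and 158 TPM at 48 h, and 147 and 180 TPM at 72 h. Its replicates lay far apart at 8 and 24 h. At 8, 24 and 72 h the lower Rpl22l1 value was in the library with high Wnt2. By TMM it changed by -0.78 (adjusted p = 0.154) at 8 h and -1.88 ± 0.42 (adjusted p = 0.00525) at 72 h. With the length trend removed its 72 h change was -0.86 and not called (adjusted p = 0.0748). Rpl3l, the muscle paralog of Rpl3, reached at most 1.61 TPM in any library, and Rps4l was at 0 TPM in all 10 time course libraries.

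Scaled to the sum of the members' own counts, a gene's change is its change relative to the family. On that scale 9 members were lower at 72 h than at 0 h and 17 were higher. Of all genes 8.43% were lower and 71% higher, with a median of 1.26. Relative to the family Rpl12 changed by -0.94 (edgeR adjusted p = 4.88e-05), Rpsa by -0.86 (adjusted p = 5.28e-05), Rps2 by -0.71 and Rpl10a by -0.64. Rpl4, Rpl3 and Rpl32 were also lower, with changes of -0.61, -0.52 and -0.35. Of the members called higher, Rpl7l1 stood first at 1.29 (adjusted p = 2.24e-05), followed by Rps29 at 1.02 (adjusted p = 0.00732), Rpl39 at 0.66 and Rps21 at 0.60. Rpl37a, Rps16, Rplp2, Rps9, Rpl13a, Rpl41, Rpl35a, Rps15, Rpl18, Rps14, Rpl31 and Rpl36 lay between 0.29 and 0.59. These genes beyond the ones above are named because they were called, after their values were seen. At 24 h 7 were lower and 8 higher, and at 48 h 9 lower and 12 higher, against 10.1 and 8.7% lower and 52.7 and 67.9% higher of all genes. At 8 h none was lower and 3 were higher relative to the family (9.73% of all genes lower, 48.4% higher): Rps27l at 0.46 (adjusted p = 0.0145), Rpl7l1 at 0.43 and Rps20 at 0.30.

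**Figure D5:**
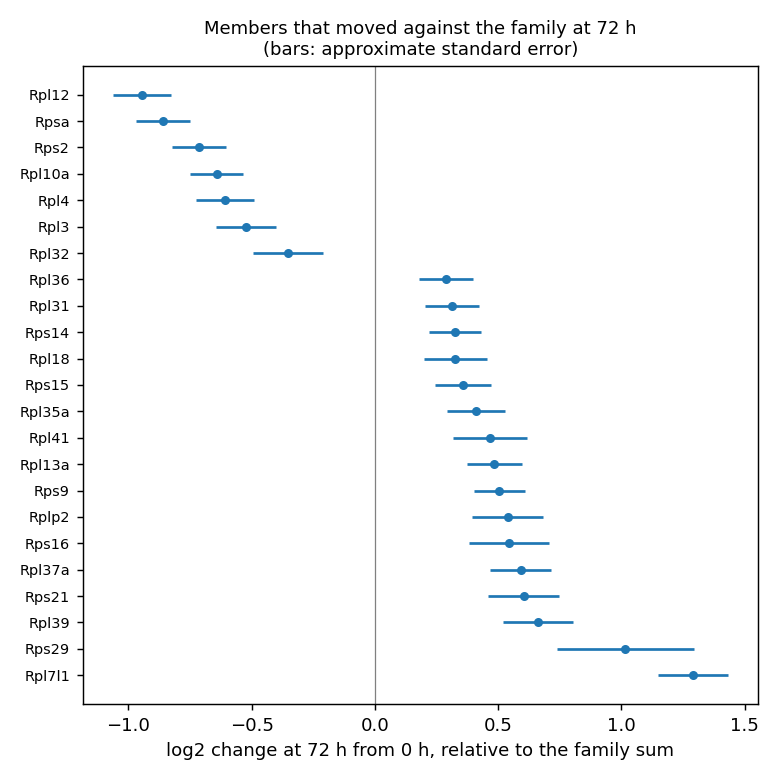
23 of the 26 members called at 72 h against 0 h when counts are scaled to the sum of the members' counts, with the log2 change on the x axis and its approximate standard error as a bar. The lower members shown run from Rpl12 at -0.94 to Rpl32 at -0.35 and the higher ones from Rpl36 at 0.29 to Rpl7l1 at 1.29.

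For some members, reads cannot be told apart from those of near-identical copies, and their levels are uncertain. The Rps27 row had between 5.34 and 14.4 TPM in the time course, at most 0.133% of the summed TPM of Rps27 and its retrocopy Rps27rt. Rps27rt had 8558 and 7548 TPM at 0 h, 8427 and 8950 TPM at 8 h, 11410 and 11860 TPM at 24 h, 16900 and 15870 TPM at 48 h, and 13390 and 14740 TPM at 72 h. In TPM the libraries at 24, 48 and 72 h were above both 0 h libraries. By TMM Rps27rt changed by 0.33 at 72 h (adjusted p = 0.11), by library size it was higher by 0.70 (adjusted p = 0.00554), and by TPM by 0.81 (limma adjusted p = 0.000224). Rps27rt was looked at after its values were seen. Which of the Rps27 and Rps27rt transcripts these reads came from was not tested, so the Rps27 changes of -0.02 (adjusted p = 0.981) at 8 h and 0.04 (adjusted p = 0.954) at 72 h describe few reads. The Rpl34 row held between 4.29 and 7.82% of the TPM of Rpl34 and Rpl34-ps1 in the time course, and Rpl34-ps1 changed by -1.09 by TMM at 72 h (adjusted p = 8.3e-05). Without the 6 members that have a copy with a -ps name, 60, 64, 70 and 70 of 74 members were lower at 8, 24, 48 and 72 h. Of all genes 21, 27.1, 30.5 and 29.4% were lower at these times. The 74 members still include Rps27, whose copy Rps27rt has no -ps name, and Rpl26 and Rpl30, whose rows are low.

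Between 8 and 72 h the members fell further. At 72 h 61 members were lower than at 8 h and none was higher, against 17.2 and 15.1% of all genes, with a member median of -0.66. On the log2(TPM + 1) scale 53 members were lower at 72 h than at 8 h and 1 was higher, against 11.2 and 28.9% of all genes. With the length trend removed 24 were lower and 7 higher, against 11.9 and 19% of all genes, with a median of -0.18. By TMM Rpl12 changed by -1.57 from 8 to 72 h, Rps2 by -1.48, Rpsa by -1.37 and Rpl10a by -1.25. The 48 and 72 h libraries lay close together: the members' medians in each library of the log2 difference from 0 h were -1.28 and -1.10 at 48 h and -1.27 and -1.14 at 72 h.

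Genes that work with the ribosome were counted in 5 lists. Beside these counts stand the shares of all genes: by TMM 21, 27.1, 30.5 and 29.4% were lower at 8, 24, 48 and 72 h and 17.9, 23.2, 25.2 and 25.9% higher. By library size 13.7, 18.1, 21 and 20% were lower and 36.7, 37.5, 39.7 and 41.5% higher, and by TPM 12.2, 14.4, 15.7 and 14.7% lower and 43.7, 45.9, 52.2 and 54.9% higher. Of 19 translation genes whose mRNAs carry the TOP motif, 17 were lower at 8 h, 17 at 24 h, 17 at 48 h and 18 at 72 h, and none was higher, with medians of -0.61, -0.87, -1.31 and -1.23 by TMM. By library size 10, 12, 17 and 17 of them were lower and by TPM 3, 10, 15 and 16, again with none higher. Eef1b2, an elongation factor subunit, had 441 and 423 TPM at 72 h, against 773 and 778 TPM at 0 h, and changed by -1.55 by TMM (adjusted p = 8.11e-06). Pabpc1, the poly(A)-binding protein gene, changed by -1.63 (adjusted p = 9.38e-06) and Nap1l1, a histone chaperone gene, by -1.54 (adjusted p = 1.77e-05). The member of the list not called at 72 h was Tpt1, which changed by -0.33 (adjusted p = 0.5). Its replicates differed, with 1194 and 2101 CPM at 72 h, against 1998 and 2155 CPM at 0 h. Without the 3 libraries with high Wnt2 the 72 h change of Tpt1 was 0.02.

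The 16 ribosome assembly genes tested were lower in 7, 11, 12 and 7 cases at 8, 24, 48 and 72 h and higher in 0, 0, 1 and 1. By library size 3, 7, 8 and 6 were lower and 3, 1, 2 and 2 higher, and by TPM 2, 5, 5 and 6 lower and 3, 2, 2 and 5 higher, so the balance at 8 h depended on the scaling. Wdr12, of the complex that matures large-subunit RNA, had 11.9 and 10.2 TPM at 72 h, against 48.9 and 53.2 TPM at 0 h, and changed by -2.89 by TMM (adjusted p = 4.57e-06). Rrs1, which in yeast helps bring Rpl5 and Rpl11 to the large subunit, changed by -1.53 (adjusted p = 4.21e-05), and Ipo7, which imports ribosomal proteins into the nucleus, by -1.12 (adjusted p = 5.73e-05). The 5 snoRNA host genes had 2, 1, 2 and 1 lower and 0, 0, 1 and 1 higher by TMM, and none was lower at 8 h by library size or TPM. Snhg1 changed by -2.05 at 72 h (adjusted p = 0.000223), Snhg12 by -1.19 (adjusted p = 0.0584), and Eif4a2, a helicase gene, rose by 0.89 (adjusted p = 0.00095).

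Of 14 growth signalling genes, 4, 6, 5 and 6 were lower and 4, 4, 5 and 4 higher at 8, 24, 48 and 72 h by TMM. The balance turned under the other scalings, with 3, 4, 3 and 3 lower and 6, 7, 7 and 7 higher by library size, and 3, 4, 3 and 2 lower and 6, 7, 9 and 8 higher by TPM. Myc, which drives transcription of ribosomal protein genes, had 234 and 260 TPM at 0 h, 19.5 and 8.23 TPM at 8 h, 11.8 and 3.70 TPM at 24 h, 7.79 and 1.80 TPM at 48 h, and 4.94 and 1.40 TPM at 72 h. Its log2 change by TMM was -4.59 (adjusted p = 0.00124) at 8 h and -7.02 (adjusted p = 0.000161) at 72 h. Eif4ebp1, which blocks cap-dependent translation, changed by -2.04 at 8 h and -1.37 at 72 h (adjusted p = 0.000344 and 0.00109). Rps6ka1, an S6-kinase family gene, changed by -1.09 at 8 h and -0.59 at 72 h by TMM (adjusted p = 8.19e-05 and 0.000668), and by TPM its 72 h change was 0.13 (limma adjusted p = 0.195).

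Of 4 genes of the response to failed ribosome assembly, 0, 1, 1 and 1 were lower and 1, 1, 3 and 2 higher at 8, 24, 48 and 72 h by TMM. By library size 0, 0, 0 and 1 were lower and by TPM none at any time, with 1, 3, 3 and 3 higher by both. Mdm2, the ubiquitin ligase gene that restrains p53, had 74.4 and 84.2 TPM at 8 h, against 32.2 and 38.5 TPM at 0 h, a change by TMM of 0.71 (adjusted p = 0.00195), and at 72 h of 0.56 (adjusted p = 0.00368). Mdm4 changed by 0.70 at 72 h (adjusted p = 0.02). Trp53, the p53 gene, was lower by TMM at 72 h (-0.67, adjusted p = 0.00113) and changed by 0.03 by TPM (limma adjusted p = 0.818).

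For mAML, LSC and GMP there was 1 library each and so no replicate check, and brackets hold the 95% exact counting interval of each log2 ratio of TMM-scaled counts. PCR reads are not independent molecules, so these intervals cover counting error only. In mAML against LSC, 78 of the 79 members that reached 10 CPM in mAML or LSC were lower by TMM, against 53.3% of all genes. The members' median was -0.44 by TMM, -0.53 by library size and -0.54 by TPM, and the median of all genes -0.0438, -0.13 and -0.11. By TMM no member was 2-fold lower or higher, against 7 and 12.7% of all genes. By library size and by TPM 2 members were at least 2-fold lower, against 8.16 and 7.02% of all genes. Rpl22l1 was at 278 TPM in mAML and 595 TPM in LSC, a log2 ratio of -0.99 [-1.06, -0.93]. Rpl12 was at 3119 TPM in mAML and 6298 TPM in LSC (-0.92 [-0.94, -0.91]), and Rpl36a at 1359 TPM in mAML and 2602 TPM in LSC (-0.84 [-0.87, -0.81]). At the other end stood Rpl26 (0.09 [-0.02, 0.20], and -0.0044 by TPM) and Rpl34 (-0.14 [-0.23, -0.06]), both low rows of 121 and 187 TPM in mAML. Markers of other cells also differed between these libraries. All 10 T- and NK-cell markers were over 1 TPM in mAML, summing to 155 TPM against 154 TPM in LSC, where only Nkg7 was over 1 TPM and Cd3e, Cd3g and Ncr1 were at 0. The 9 erythroid markers summed to 3910 TPM in mAML and 7.90 TPM in LSC, the 7 neutrophil markers to 88600 and 22000 TPM, the 7 monocyte and macrophage markers to 7950 and 4200 TPM, and the 8 B-cell markers to 66.3 and 49.3 TPM. No marker of these lists was at 0 in mAML. Kit was at 0.63 TPM in mAML and 93.4 TPM in LSC. The part of other cells in the mAML values was not tested.

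In LSC against GMP the members' median ratio was 0.18 by TMM, 0.05 by library size and -0.02 by TPM, so its sign depends on the scaling, beside 0.0253, -0.10 and -0.20 for all genes. Of 80 members 2 were at least 2-fold lower, Rps4l and Rpl26, and none was 2-fold higher, against 8.13 and 10.9% of all genes. Rps4l had 1 read in LSC and 308 in GMP (0.05 and 24.6 TPM), and the counting interval of that ratio runs from -14.17 to -6.37, beyond the -6.19 that a prior count of 5 gives. Rps4l was also at 0.27 TPM in mAML, so only GMP among the 13 libraries reached 1 TPM. Rpl26 was at 121 TPM in LSC and 367 TPM in GMP (-1.42 [-1.52, -1.32]) and Rpl30 at 104 TPM in LSC and 202 TPM in GMP (-0.75 [-0.87, -0.64]). Both rows are low for members, and whether reads of these genes were counted to near-identical copies was not tested, so their levels and ratios are uncertain, also in the other pairs. Rps29 was at 9868 TPM in LSC and 7003 TPM in GMP (0.63 [0.61, 0.65]) and Rpl32 at 8488 TPM in LSC and 6610 TPM in GMP (0.53 [0.51, 0.55]). In LSC Rps29 was the member with the most TPM.

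In mAML against GMP the median was -0.28 by TMM, -0.49 by library size and -0.56 by TPM, beside 0.0139, -0.20 and -0.28 for all genes. By TMM 4 of 80 members were at least 2-fold lower (12.5% of all genes) and none 2-fold higher (19.2%). By library size 7 were 2-fold lower and by TPM 9, against 18 and 19.2% of all genes. The lowest were Rps4l (0.27 TPM in mAML and 24.6 TPM in GMP, from 7 and 308 reads; -5.32 with a prior count of 5, counting interval -7.52 to -5.13), Rpl26 (-1.33 [-1.43, -1.24]) and Rpl22l1 (-1.17 [-1.24, -1.10]), and the fourth was Rpl30 (-1.01). Rps9 (0.19 [0.18, 0.21]) and Rpl10 (0.08 [0.06, 0.09]) were among the 3 highest, and by library size and TPM both turned negative. Between members, the change at 72 h of A-485 and the ratio of mAML to LSC had a Pearson r of 0.40 and a Spearman rho of 0.32 over the 80 members. This is a description across genes that share libraries, depth and length within each comparison. Rpl12 and Rpl22l1 were among the lowest in both.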

How the data were processed

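RNA was sequenced from 13 libraries. Per the submitters' processing notes STAR and RSEM were used with build mm9; no versions are named there. Per the file headers, the deposited expected counts are RSEM's estimated reads per gene, unscaled, and the TPM that the authors deposited are abundances corrected for transcript length and library depth. Transcript lengths given here are the deposited lengths, and the trend on length was fitted on the deposited effective lengths (other quantities, not a level). Because build mm9 differs from that of the sequences printed, no coordinates come from the files.

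Expected counts were rounded. edgeR 4.0.16 in R 4.3.3 was run on all 10 time course libraries with TMM scaling, filterByExpr (11119 genes), time as a factor and no replicate block, leaving 5 residual degrees of freedom. Benjamini-Hochberg adjustment ran over all genes tested, with a threshold of 0.05. Standard errors are approximate, taken from the log2 change and its F statistic. The common biological coefficient of variation was 0.186. Alternatives were library size, DESeq2 1.42.0, limma 3.58.1 on log2(TPM + 1), scaling to the member sum, a length trend, no filter, a replicate block, and leaving out libraries. The scripts were tested on simulated data. Replicates of a time differed by 5.95 to 25.1 in chi-square per degree of freedom, so none is a copy of another. Single libraries were compared as log2 ratios with a prior count of 5, without a test.

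Named genes are 29 members fixed by role, up to 4 members with the largest rise and fall at 8 and 72 h, the 3 highest and 3 lowest in each single-library pair, and 3 genes from each list with the smallest p over all treated times. The members and lists were chosen with earlier results of these data known. A few genes that these rules or calls would name are not reported here, though they are counted.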

Additional observations from a re-analysis of the deposited data

Results flagged for a closer look

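The change from 0 h differed between 8 and 72 h for many members, by the test of 72 h against 8 h in the same fit (edgeR quasi-likelihood test, Benjamini-Hochberg adjusted p under 0.05). At 72 h 61 of the 80 members were lower than at 8 h and 0 were higher, beside 17.2 and 15.1% of all genes. Among the named members, the log2 difference of 72 h from 8 h was -1.57 for Rpl12, -1.48 for Rps2, -1.37 for Rpsa, -1.25 for Rpl10a and -1.02 for Rpl3. It was -0.98 for Rplp0, -0.96 for Rps26, -0.93 for Rplp1, -0.88 for Rps27l, -0.85 for Rps6 and -0.83 for Rpl7. It was -0.68 for Rpl14, -0.64 for Rps3, -0.57 for Rps19, -0.55 for Rpl5, -0.54 for Rpl11, -0.49 for Rps4x, -0.47 for Rps25, -0.42 for Rps14 and -0.33 for Rpl22. Groups of 2 libraries are too small to look for a single deviating library.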

How the results depend on the processing

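Under DESeq2, 66, 74, 78 and 76 members were lower at 8, 24, 48 and 72 h, against 21, 26.4, 28.9 and 28.6% of all genes. Without a filter on low counts 60, 68, 76 and 76 members were lower. The share of all genes was not counted for that fit. Scaling moved the counts most. By library size alone 16, 44, 69 and 67 were lower (13.7, 18.1, 21 and 20% of all genes). By that scaling 0, 0, 1 and 1 were higher (Rpl7l1), against 36.7, 37.5, 39.7 and 41.5% of all genes. The members' medians were -0.25, -0.37, -0.84 and -0.84. On log2(TPM + 1) 9, 23, 63 and 62 were lower (12.2, 14.4, 15.7 and 14.7% of all genes). There 2, 3, 1 and 1 were higher, against 43.7, 45.9, 52.2 and 54.9% of all genes. Between 72 and 8 h 53 were lower and 1 higher, against 11.2 and 28.9% of all genes. The members' medians from 0 h were -0.15, -0.17, -0.50 and -0.52. With the length trend removed 28, 19, 38 and 47 were lower (16.8, 20, 21.3 and 20.8% of all genes). In that fit 0, 7, 4 and 4 were higher, against 26, 30.6, 34.9 and 37.4% of all genes. Between 72 and 8 h 24 were lower and 7 higher, against 11.9 and 19% of all genes. The members' medians from 0 h were -0.28, -0.0825, -0.29 and -0.43. Scaled to the member sum 0, 7, 9 and 9 were lower (9.73, 10.1, 8.7 and 8.43% of all genes). On that scale 3, 8, 12 and 17 were higher, against 48.4, 52.7, 67.9 and 71% of all genes. Between 72 and 8 h 9 were lower and 11 higher, against 4.89 and 55.2% of all genes. Over all treated times 24 changed, against 83.2% of all genes. The medians were then -0.0019, 0.0244, 0.0196 and 0.0693, since this scaling sets the family near 0 by construction. For the other scalings the cause was not tested.

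The LSC against GMP median was 0.0532 by library size and -0.0231 by TPM, the mAML against LSC median -0.53 and -0.54, and the mAML against GMP median -0.49 and -0.56. The share of TPM in place of reads was 28.7 and 29.9% at 0 h, 28.0 and 26.2% at 8 h, 26.3 and 26.2% at 24 h, 20.8 and 22.0% at 48 h, 19.6 and 20.8% at 72 h, 17.9% in mAML, 27.0% in LSC and 26.5% in GMP.

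With each library left out in turn, 32 to 66 members were lower at 8 h, 50 to 71 at 24 h, 70 to 77 at 48 h and 69 to 76 at 72 h, 43 to 61 between 72 and 8 h, and 65 to 76 changed over all times; 0 were higher in any of these fits. The lowest counts at 8 h were 32 without replicate 2 at 0 h and 43 without replicate 2 at 8 h. Medians ran from -0.65 to -0.45 at 8 h, -0.69 to -0.59 at 24 h, -1.29 to -1.10 at 48 h and -1.26 to -1.14 at 72 h. Deviations of same-numbered libraries correlated at 0.64 between 8 and 24 h, at -0.40 between 8 and 72 h and at -0.41 between 24 and 72 h. Between the other times the correlation was 0.02 to 0.15, so the numbers do not pair libraries throughout. The high-Wnt2 libraries were replicate 2 at 8 and 24 h and replicate 1 at 72 h. Libraries of these 3 times may therefore not be independent, which neither the main fit nor a block by number models. With the replicate block 61, 69, 76 and 76 were lower, and 60 between 72 and 8 h. The share of all genes was not counted for that fit or for the fits with a single library left out. Their member counts therefore have no such share beside them.

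Among named members, signs turned as follows. Scaled to the member sum at 8 h, Rps2 had 0.0493, Rps6 0.09, Rps14 0.0279, Rps26 0.0304, Rps27 0.52, Rpl5 0.0407, Rpl7 0.14, Rpl38 0.01, Rpl39 0.32, Rplp0 0.13, Rplp1 0.22, Rpl7l1 0.43 and Rps27l 0.46. At 72 h Rps3 had 0.0455, Rps4x 0.14, Rps14 0.32, Rps19 0.0534, Rps25 0.0926, Rpl5 0.21, Rpl7 0.0228, Rpl10 0.35, Rpl11 0.0530, Rpl22 0.14, Rpl38 0.34, Rpl39 0.66, Rplp1 0.0089, Rplp2 0.54 and Rps27l 0.29. With the length trend removed Rps27 had 0.28, Rpl39 0.0606, Rpl7l1 0.0123 and Rps27l 0.20 at 8 h, and Rpl38 0.45, Rpl39 0.53, Rplp2 0.33 and Rps27l 0.0559 at 72 h. By TPM at 8 h Rps27 had 0.33, Rpl7 0.0076, Rpl39 0.15, Rplp0 0.0133, Rplp1 0.0725, Rpl7l1 0.32 and Rps27l 0.30, and by library size Rps27 0.29, Rpl39 0.0872, Rpl7l1 0.19 and Rps27l 0.21. Without a filter Rps27 had 0.0020 at 8 h. Without the 3 libraries with high Wnt2, an alternative chosen after seeing the data, Rps27 had 0.26 at 8 h and -0.0766 at 72 h and Rpl7l1 -0.0093 at 72 h. Leaving out 1 library at a time, Rps27 ranged from -0.35 to 0.26 at 8 h and from -0.0754 to 0.24 at 72 h, and Rpl7l1 from -0.0093 to 0.0674 at 72 h. With 2 libraries a time and 6467764 to 9763276 reads, low members such as Rps27 cannot show small changes at this depth.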

Other observations

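Transcript length and the change of members were related weakly, and in the other direction from the rest of the genes. Over the 80 members tested, length and the log2 change at 72 h had a Pearson r of -0.20 and a Spearman rho of -0.27. Over the 72 members above 500 TPM these were -0.43 and -0.39, and over the 11039 other genes 0.16 and 0.22. The 27 shortest members (302 to 566 nt) had a median log2 change of -0.51 at 8 h and -1.14 at 72 h, the 26 in the middle (573 to 837 nt) -0.61 and -1.17, and the 27 longest (862 to 5134 nt) -0.59 and -1.26. These are descriptions across genes of the same libraries.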
